A study of Homo sapiens with 38 samples.

Results

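The genes of the replacement histone variants were followed by RNA-seq in cell lines of human neuroblastoma. The group was fixed by name and holds 10 genes, H2AFZ, H2AFV, H2AFX, H2AFY, H2AFY2, H3F3A, H3F3B, H1F0, H1FX and CENPA, of the 50652 genes listed for BE2C cells and the 50778 listed for the other lines. All 10 were listed in every library and all 10 passed the expression filter of each fit. BE2C cells, a MYCN-amplified line, were transfected for 72 h with a control siRNA (siCtrl, 2 libraries) or with 1 of 3 siRNAs against the H3K27 demethylase KDM6B (N1, N2 and N33, 1 library each), or were treated with 2.5 µM GSK-J4, a cell-permeable KDM6 inhibitor, for 0 h, 24 h or 48 h (2 libraries each). CHLA15 and CHLA20 cells received 300 nM palbociclib, an inhibitor of the kinases CDK4 and CDK6, and NB1643 and NB1691 cells received 3 µM, each for 72 h beside control cells (2 libraries per line and condition). The 0 h cells are the controls of both GSK-J4 times, without a vehicle control kept for the same time, and the palbociclib dose cannot be told apart from the pair of lines that received it. The paper describes 2 of the 4 palbociclib lines as MYCN-amplified and 2 as not, without naming which in the text used here. No label says whether the libraries of a group came from separate cultures, so the tests measure the spread between libraries, which may be technical.

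Most histones are made in S phase, from clustered genes without introns whose mRNAs end in a stem-loop in place of a poly(A) tail, and are placed on newly copied DNA. Replacement variants come from genes outside those clusters, most of them with introns and polyadenylated mRNAs, and can be exchanged into chromatin at other times. H2A.Z, encoded by H2AFZ and H2AFV, sits beside transcription start sites and is exchanged by the SRCAP and EP400 complexes, whereas H2A.X (H2AFX) is phosphorylated around DNA breaks. H2AFY and H2AFY2 encode the macroH2A proteins, which carry a large globular domain and mark repressed chromatin. H3F3A and H3F3B encode the identical protein H3.3, placed by HIRA or by ATRX and DAXX. H1F0 and H1FX encode the linker histones H1.0 and H1.X, and CENPA encodes the H3 variant of centromeres, which HJURP loads after mitosis.

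Reads were counted per gene, and levels are given as CPM, the counts of a gene relative to all counts on genes, scaled between libraries by the TMM method. Libraries held 36186567 to 93011010 counts on genes, so that 3 counts were worth at most 0.0829 CPM, well below the level of any member. In GRCh37 coordinates with the GENCODE annotation lifted to that build, H2AFZ lies on chromosome 4 (100869243 to 100871512, minus strand), H2AFX on chromosome 11 (118964584 to 118966175, minus strand), H1F0 on chromosome 22 (38201236 to 38203439, plus strand) and CENPA on chromosome 2 (26987157 to 27023935, plus strand). H2AFX, H1F0 and H1FX have 1 exon, and the canonical transcripts of the others have 4 to 9. H3F3A shares near-identical sequence with the processed pseudogene H3F3AP4, which held 10.4% to 25.3% of the counts of the pair, and how multiply matching reads were split between them is uncertain. Exons of H1FX share 345 of 1516 bases with its antisense gene H1FX-AS1, exons of H2AFY share 4706 of 17013 bases with PITX1-AS1 on the opposite strand, exons of H2AFY2 share 986 bases with AIFM2 on the opposite strand and exons of CENPA share 138 bases with SLC35F6 on the same strand. The use of strand in the counting is not given in the sources used here.

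Expression of the defining genes was checked against the labels. NB1691 stood apart, with 14558 to 19850 CPM of the collagen gene COL1A1. Its summed neuroblastoma markers were 453 to 678 CPM, against 2239 to 3269 CPM in the other 3 lines of the palbociclib experiment. COL1A2 did not go with COL1A1, at means of 1.69 CPM in NB1691 control cells and 2.50 CPM in CHLA20 control cells. LUM did, at 1753 CPM against 62.0 CPM in the same groups. Summed epithelial markers were 348 to 626 CPM in NB1691 and at most 2.95 CPM in the other 3 lines of the palbociclib experiment. That sum came from keratin genes, with up to 567 CPM of KRT18 and 58.7 CPM of KRT8. EPCAM did not exceed 1.20 CPM and CDH1 0.199 CPM in any library of that experiment. The part of these markers in the values of the members was not tested. Summed immune markers did not exceed 0.965 CPM in any library, and the T-cell gene CD3E was at 0 in all BE2C libraries. KDM6B itself was not lower in the libraries labelled siKDM6B, with 8.99 CPM for N1, 7.11 CPM for N2 and 8.26 CPM for N33 against 6.47 and 8.76 CPM in siCtrl (log2 fold change 0.09, SE 0.30, edgeR quasi-likelihood test, adjusted p = 0.945). Every siRNA value below therefore belongs to libraries labelled siKDM6B, without a check of the knockdown in these counts. GSK-J4 moved KDM6B the other way from the members, from 7.42 and 8.16 CPM at 0 h to 23.7 and 22.8 CPM at 48 h.

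Promoters of 4 members are shown because their genes span the range of responses described below, from CENPA, H2AFX and H2AFZ, which fell most among the core histone variants with palbociclib in NB1643, to H3F3B, which did not pass the test there. The sequences are from RefSeq (GRCh38.p14) and run 5′ to 3′ on the strand of each gene, from 250 bases before the transcription start. CENPA is at chr2:26785806-26786105 (plus), H2AFZ at chr4:99950226-99950525 (minus), H2AFX at chr11:119095416-119095715 (minus) and H3F3B at chr17:75779730-75780029 (minus). Capitals mark exact matches, searched on both strands. An E2F site was read as TTTCCCGC, TTTGGCGC, TTTCGCGC or TTTGCCGC. For the cell cycle gene homology region, or CHR, the letters were TTTGAA. Its variant with the letters TTCGAA was counted as a CHR match too. The CCAAT box was searched by its name. For the TATA box the letters searched were TATAAA.
CENPA: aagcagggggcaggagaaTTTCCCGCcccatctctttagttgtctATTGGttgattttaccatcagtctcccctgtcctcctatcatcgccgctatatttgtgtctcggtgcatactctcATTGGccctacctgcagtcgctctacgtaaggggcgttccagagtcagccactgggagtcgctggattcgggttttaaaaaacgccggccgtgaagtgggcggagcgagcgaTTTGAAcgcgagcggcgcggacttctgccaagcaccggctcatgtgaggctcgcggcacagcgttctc
H2AFZ: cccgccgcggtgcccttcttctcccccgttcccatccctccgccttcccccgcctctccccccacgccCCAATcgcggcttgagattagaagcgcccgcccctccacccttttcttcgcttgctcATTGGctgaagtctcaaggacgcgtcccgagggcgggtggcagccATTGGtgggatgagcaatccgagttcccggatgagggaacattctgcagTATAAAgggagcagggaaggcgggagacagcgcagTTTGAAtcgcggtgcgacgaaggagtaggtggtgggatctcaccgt
H2AFX: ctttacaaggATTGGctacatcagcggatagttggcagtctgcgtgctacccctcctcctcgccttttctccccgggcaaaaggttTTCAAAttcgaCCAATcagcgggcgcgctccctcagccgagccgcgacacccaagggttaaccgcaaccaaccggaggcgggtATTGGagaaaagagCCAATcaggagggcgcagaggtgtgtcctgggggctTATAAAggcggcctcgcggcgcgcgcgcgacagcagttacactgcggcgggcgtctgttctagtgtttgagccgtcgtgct
H3F3B: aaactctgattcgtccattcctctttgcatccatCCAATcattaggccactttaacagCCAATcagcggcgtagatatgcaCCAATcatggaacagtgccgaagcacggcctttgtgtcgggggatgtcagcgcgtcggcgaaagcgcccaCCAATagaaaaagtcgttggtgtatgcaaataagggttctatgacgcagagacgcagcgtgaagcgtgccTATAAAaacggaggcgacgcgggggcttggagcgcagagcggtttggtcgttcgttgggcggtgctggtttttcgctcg
A CHR match was held by 4 of the 9 members with a promoter in the table, H2AFZ, H2AFV, H2AFX and CENPA, and by 16.4% of all 35116 promoters of that length. Counted from the transcription start, it lay at positions -18 to -13 in CENPA, -50 to -45 in H2AFV, -164 to -159 in H2AFX and 4 to 9 in H2AFZ. CCAAT boxes were held by 7 of the 9 members and by 34.6% of all promoters, with 3 in H2AFZ and 4 each in H2AFV, H2AFX and H3F3B. Both motifs together were found in the same 4 members that held a CHR match and in 6.38% of all promoters. TATA boxes were found in H2AFZ, H2AFX, H3F3B and H1FX, against 11.5% of all promoters. The E2F letters were found in CENPA alone among the members, at positions -232 to -225, against 3.31% of all promoters. None of the matches overlapped another, and H1F0 had no entry in the table. A member was counted if any of its promoters held the match, 13 promoters for the 9 members, whereas the shares count single promoters. H2AFY had 2 promoters, with CCAAT boxes in the second only, and H3F3A had 4. The members were compared with all promoters without a test because they were chosen with their expression known.

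GSK-J4 lowered the mRNAs of all 10 replacement variants in BE2C cells. At 24 h, 10 of 10 were lower at an adjusted p under 0.05 (edgeR quasi-likelihood test), where 28.0% of the 17734 genes tested were called lower, and at 48 h all 10 were again lower, against 34.4%. The median log2 fold change of the members was -0.30 at 24 h and -0.79 at 48 h, beside 0.01 and 0.05 over all genes tested. All treated libraries lay below both 0 h libraries for every member, at both times, as they did for 37.2% of all genes tested at 24 h and 39.9% at 48 h. The 24 h and 48 h comparisons share the 0 h libraries.

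CENPA fell furthest. Its level was 38.8 and 39.5 CPM at 0 h, 15.8 and 14.4 CPM at 24 h and 7.12 and 6.56 CPM at 48 h. The libraries of the 3 times did not overlap, and the log2 change from 24 h to 48 h was -1.14. The log2 fold change was -1.37 (SE 0.06, adjusted p = 3.46e-24) at 24 h and -2.51 (SE 0.07, adjusted p = 2.26e-33) at 48 h, a 5.70-fold lower level.

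The linker variants responded early. H1F0, a gene usually induced when cells stop dividing, went from 142 and 141 CPM at 0 h to 81.8 and 77.3 CPM at 24 h and 72.6 and 71.6 CPM at 48 h. Most of its decrease was thus present at 24 h (log2 fold change -0.83, SE 0.03), and the step from 24 h to 48 h was -0.14 (SE 0.04, adjusted p = 0.000706). H1FX had 115 and 112 CPM at 0 h, 62.1 and 58.4 CPM at 24 h and 48.1 and 43.7 CPM at 48 h. The 48 h level of H1FX was 2.47-fold lower than that at 0 h (log2 fold change -1.30, SE 0.04). The counts of H1FX-AS1, whose exons overlap those of H1FX, also fell, from 6.46 and 6.11 CPM at 0 h to 2.39 and 2.31 CPM at 48 h, and its part in the values of H1FX was not tested.

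The H2A variants fell later. H2AFY, the major macroH2A gene in these cells, had 387 CPM in both 0 h libraries, 310.2 and 307 CPM at 24 h and 189 and 182 CPM at 48 h (log2 fold change at 48 h -1.06, SE 0.03). H2AFY2, the other macroH2A gene, went from 96.9 and 99.6 CPM to 76.4 and 78.7 CPM and then to 61.5 and 60.9 CPM (-0.68, SE 0.04). At 48 h the 2 macroH2A mRNAs stood at 48.1% and 62.3% of their 0 h means. In the siCtrl libraries of BE2C, which were fitted and scaled apart, H2AFY had 209 and 207 CPM, nearer to its 48 h level than to its 0 h level. That difference between the controls of the line was not tested. H2AFX had 132 and 136 CPM at 0 h, 111 and 109 CPM at 24 h and 73.2 and 69.7 CPM at 48 h (-0.90, SE 0.03). Both H2A.Z genes moved less than H2AFY and H2AFX at 48 h, and H2AFZ moved about as far as H2AFY2. For H2AFZ the levels were 613 and 595 CPM, 525 and 514 CPM, and 382 and 375 CPM (-0.67, SE 0.03). H2AFV gave 210.5 and 207 CPM, 183 and 182 CPM, and 144 and 139.9 CPM (-0.56, SE 0.03). From 24 h to 48 h the log2 changes of these 5 genes lay between -0.34 and -0.73, further from 0 than over the first 24 h (-0.19 to -0.33) in H2AFZ, H2AFV, H2AFX and H2AFY, whereas H2AFY2 had -0.34 in each step.

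The H3.3 genes changed least. H3F3A had 195 and 196 CPM at 0 h, 178 CPM in both 24 h libraries and 157 CPM in both 48 h libraries (log2 fold change at 48 h -0.32, SE 0.03, adjusted p = 5.34e-13). H3F3B had 504 and 486 CPM, 438 and 440.4 CPM, and 443 and 435 CPM. The 24 h and 48 h libraries of H3F3B overlapped, and it was the member not called between 24 h and 48 h (-0.00, 95% interval -0.06 to 0.05, adjusted p = 0.991). The other 9 members were lower at 48 h than at 24 h, where 28.0% of genes were called lower. H3F3AP4 gave values of 55.4 and 52.4 CPM at 0 h and 48.3 and 53.1 CPM at 48 h (-0.09, adjusted p = 0.0623), and its part in the values of H3F3A was not tested.

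**Figure D1:**
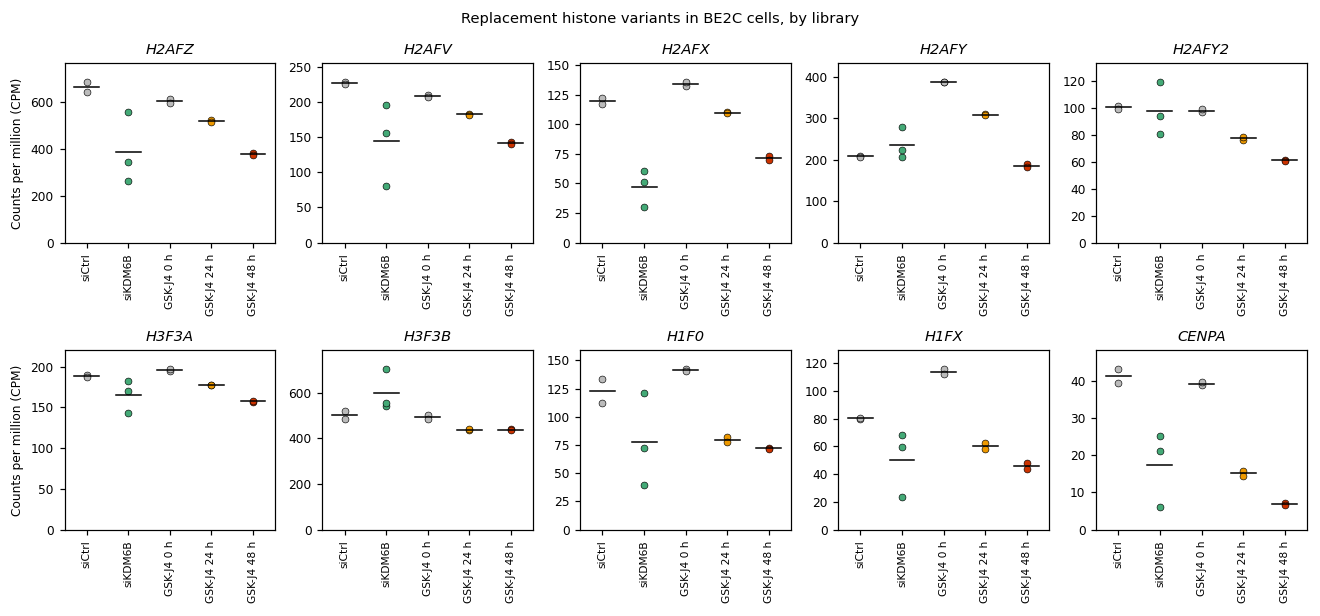
Level of the 10 replacement histone variant genes in BE2C cells in CPM (y axis, linear from 0, scaled separately for each gene), by group on the x axis. Each point is 1 library and each bar the group mean. With GSK-J4 every treated library lies below both 0 h libraries, as for CENPA with 38.8 and 39.5 CPM at 0 h and 7.12 and 6.56 CPM at 48 h, whereas the 3 siKDM6B libraries scatter widely.

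With the KDM6B siRNAs, no member passed the test. Of the 10 members 0 were called, as were 0% of the 17472 genes tested, with edgeR and with limma-voom, although 1615 genes had an unadjusted p under 0.05 and DESeq2 called 164 genes. The median log2 fold change was -0.66 over the members and 0.04 over all genes. H2AFX, the member with the lowest value, had 118 and 123 CPM in siCtrl and 51.1, 60.5 and 29.8 CPM with the siRNAs N1, N2 and N33 (log2 fold change -1.35, SE 0.32, adjusted p = 0.520). All 3 lay below both siCtrl libraries, and H2AFX was called with DESeq2 (adjusted p = 0.0468). CENPA had 43.0 and 39.4 CPM in siCtrl and 25.0, 21.1 and 6.11 CPM in N1, N2 and N33 (-1.24, SE 0.54, adjusted p = 0.552).

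The siRNAs differed among themselves. N33 held the lowest level of H2AFX, H3F3A, H1F0, H1FX and CENPA, with 39.5 CPM of H1F0 against 72.1 and 121 CPM in N1 and N2. N2 held the lowest level of both H2A.Z genes, 264 CPM of H2AFZ against 556 CPM in N1 and 345 CPM in N33, and 80.7 CPM of H2AFV against 195 and 157 CPM. In siCtrl H2AFZ had 685 and 643 CPM and H2AFV 228 and 226 CPM. H3F3B was above both siCtrl libraries (519 and 486 CPM) with each siRNA, at 702 CPM for N1, 543 CPM for N2 and 554 CPM for N33, without passing the test (0.26, 95% interval -0.26 to 0.77). Each siRNA had 1 library, so differences between them have no replicate check.

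Palbociclib lowered 5 to 9 of the 10 replacement variants, depending on the line, and no member was called higher in the fit of all 4 lines. With each line fitted alone H2AFY2 (log2 fold change 0.12, adjusted p = 0.0424) and H3F3A (0.12, adjusted p = 0.0400) were called higher in CHLA15, and with upper quartile factors H3F3A was called higher in NB1643 (0.16, adjusted p = 0.0384). In CHLA15 5 of 10 members were called lower, where 15.6% of the 22133 genes tested were. In CHLA20 7 were called lower against 15.9% of genes, in NB1643 7 against 19.7% and in NB1691 9 against 15.5%. The median log2 fold changes of the members were -0.20 in CHLA15, -0.38 in CHLA20, -0.84 in NB1643 and -0.57 in NB1691, beside all-gene medians of -0.00, 0.00, 0.00 and 0.02. H2AFX, H1F0, H1FX and CENPA were called lower in every line. H3F3A was called in no line in the fit of all 4.

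CENPA varied most between lines. In NB1643 it went from 33.3 and 37.3 CPM in control cells to 1.20 and 0.84 CPM with palbociclib, which are 78 and 41 counts. The libraries were far apart, and the level was 33.8-fold lower (log2 fold change -5.08, SE 0.12, adjusted p = 1.89e-16). In NB1691 it had 12.3 and 13.5 CPM in control cells and 1.34 and 1.31 CPM with palbociclib, 9.70-fold lower. CHLA15 gave 45.2 and 46.1 CPM against 33.9 and 34.9 CPM (-0.41, SE 0.08), and CHLA20 46.8 and 53.0 CPM against 34.5 and 35.7 CPM (-0.51, SE 0.08). The line by palbociclib interaction of CENPA had an adjusted p of 2.48e-14.

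H2AFX showed the same order of lines. Its level was 90.9 and 72.8 CPM in NB1643 control cells and 18.9 and 14.96 CPM with palbociclib, 4.82-fold lower. In NB1691 the values were 58.9 and 62.3 CPM against 25.3 and 23.7 CPM, 2.47-fold lower. CHLA15 had 146 and 159 CPM against 122 and 104 CPM (log2 fold change -0.44, SE 0.12, adjusted p = 0.00929), and CHLA20 137 and 180.3 CPM against 99.0 and 110.3 CPM (-0.60, SE 0.12). The call in CHLA15 rested on single libraries, with an adjusted p of 0.124 without the second palbociclib library and 0.0958 without the second control library.

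The H2A.Z genes followed with smaller changes. H2AFZ had 348 and 413 CPM in NB1643 control cells and 191 and 186 CPM with palbociclib (log2 fold change -1.01, SE 0.08), and 266 and 267 CPM against 159 and 149 CPM in NB1691 (-0.79, SE 0.08). In CHLA20 it had 530.0 and 633 CPM against 395 and 402 CPM (-0.55, SE 0.08). In CHLA15, with 429 and 473 CPM against 415 and 400.0 CPM, it did not pass the test (-0.15, 95% interval -0.31 to 0.02, adjusted p = 0.183). H2AFV ranged from -0.78 (SE 0.05) in NB1643, where 177 and 185 CPM stood against 104 and 107 CPM, to -0.08 (95% interval -0.18 to 0.02) in CHLA15.

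The linker variants were called in every line. H1F0 had 304 and 286 CPM in CHLA15 control cells against 208 and 177 CPM with palbociclib, and 415 CPM in both CHLA20 control libraries against 224 and 230.4 CPM. In NB1643 it had 1412 and 1493 CPM against 786 and 764 CPM, and in NB1691 104 and 109.9 CPM against 60.4 and 57.3 CPM. Its log2 fold changes lay close together, at -0.61, -0.87, -0.91 and -0.86 (SE 0.06 to 0.07) in CHLA15, CHLA20, NB1643 and NB1691, although control levels differed widely. The interaction of H1F0 had an adjusted p of 0.0461, close to the threshold. H1FX ranged from -0.44 (SE 0.10) in CHLA15 to -1.12 (SE 0.10) in NB1643, where 373 and 324 CPM stood against 170 and 151 CPM.

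The macroH2A and H3.3 genes changed little or in some lines only. H2AFY was lower in NB1643, with 238 and 240.5 CPM against 172 and 168 CPM (log2 fold change -0.49, SE 0.06), and in NB1691, with 168 and 173 CPM against 146 and 147 CPM (-0.22, SE 0.06). It had 0.06 (95% interval -0.06 to 0.18) in CHLA15 and -0.09 (95% interval -0.21 to 0.03) in CHLA20. H2AFY2 was lower in NB1691, at 52.6 and 55.1 CPM against 44.4 and 44.5 CPM (-0.28, SE 0.05, adjusted p = 0.000601), and lay between -0.01 and 0.10 in the other lines without passing the test.

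H3F3A ranged from a log2 fold change of -0.13 (95% interval -0.26 to 0.00) in NB1691 to 0.10 (95% interval -0.02 to 0.23) in CHLA15. H3F3B was lower in 3 lines, by 0.26 in CHLA15, by 0.24 in CHLA20 and by 0.39 in NB1691 on the log2 scale (log2 fold changes -0.26, -0.24 and -0.39). In NB1643 its 2 control libraries had 1251 and 1384 CPM and its palbociclib libraries 1314 and 1331 CPM, which lay between them (0.01, 95% interval -0.11 to 0.12).

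**Figure D2:**
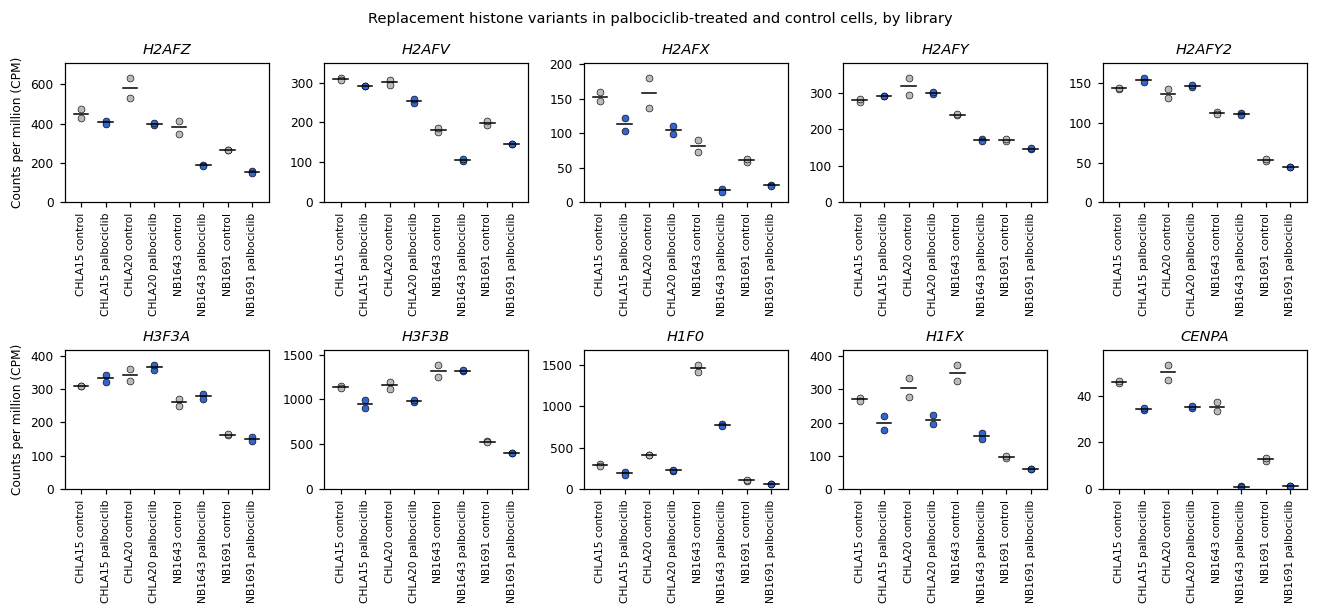
Level of the 10 genes in CPM (y axis, linear from 0, scaled separately for each gene) in control (grey) and palbociclib-treated (blue) cells of 4 lines on the x axis. Each point is 1 library and each bar the mean of 2. CENPA in NB1643 drops from 33.3 and 37.3 CPM to 1.20 and 0.84 CPM, whereas the H3F3A libraries of control and treated cells lie close together in each line.

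The lines differed in how far the members fell. The interaction of line and palbociclib was called for 9 of 10 members, where 38.0% of genes were, and the exception was H3F3A (adjusted p = 0.0973). Without the NB1691 libraries, a fit chosen after seeing the data, 7 members were called. H2AFY2 (adjusted p = 0.320) and H3F3B (adjusted p = 0.0912) were no longer among them. That fit called 4650 genes, against 8403 with all lines, and their share of the genes tested in it was not computed. For 7 of the 9 members called with all lines, the lowest log2 fold change was in NB1643 and the highest in CHLA15. These were H2AFZ, H2AFV, H2AFX, H2AFY, H1F0, H1FX and CENPA, whereas H2AFY2 and H3F3B had their lowest value in NB1691. The share of all genes with the order of those 7 was not counted. NB1643 and NB1691 received 3 µM and the CHLA lines 300 nM, so dose and line cannot be told apart. The MYCN status of the lines was not part of the fit. The summed level of 10 proliferation markers moved with these differences, from 2965 to 3027 CPM in CHLA15 control cells to 2230 to 2346 CPM with palbociclib, from 3175 to 3268 CPM to 2124 to 2149 CPM in CHLA20, from 1854 to 1863 CPM to 261 to 268 CPM in NB1643 and from 1259 to 1282 CPM to 214 to 234 CPM in NB1691. Its part in the members' values was not tested, and in bulk RNA fewer cycling cells cannot be told apart from less RNA per cell. In BE2C the same sum went from 3373 to 3429 CPM at 0 h to 1991 to 1999 CPM at 48 h of GSK-J4, and from 2672 to 2749 CPM in siCtrl to 773 to 2040 CPM with the KDM6B siRNAs.

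**Figure D3:**
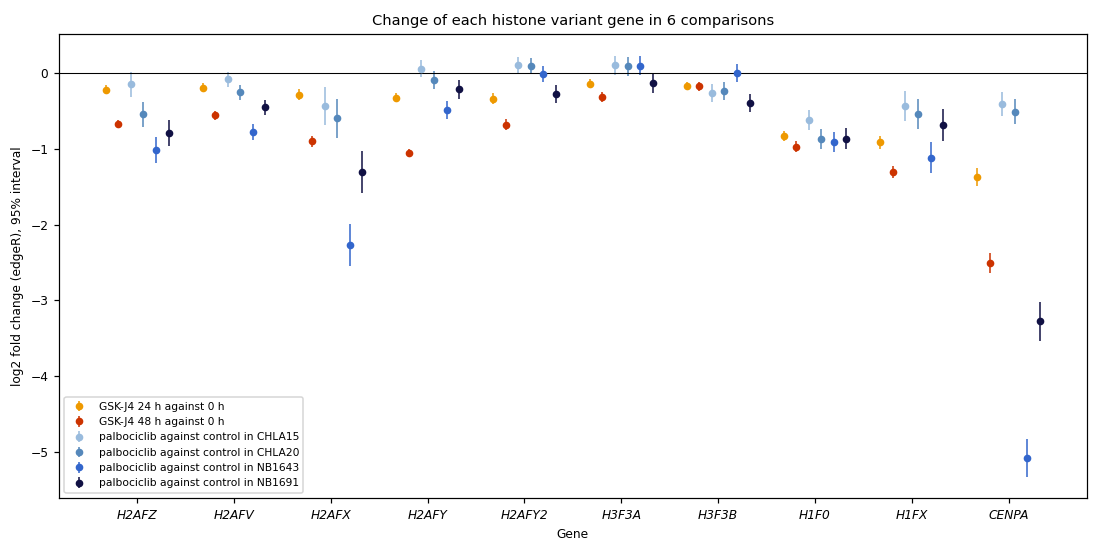
log2 fold change (y axis) of each gene (x axis) for GSK-J4 at 24 h and 48 h against 0 h in BE2C and for palbociclib against control in 4 lines, with bars for the 95% interval of the edgeR fit (2 libraries a group). CENPA reaches -5.08 in NB1643 and H3F3A stays between -0.32 and 0.10 in all 6 comparisons.

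Pairs of genes that encode related or identical proteins were compared as the ratio of their counts within each library, which does not depend on the scaling between libraries. Over the 4 lines the ratio of H3F3B to H3F3A fell with palbociclib by a mean of 0.26 on the log2 scale (mean difference -0.26, two-sided exact permutation test within lines, p = 0.00154, adjusted p = 0.00617 over 4 ratios), and that p is the smallest the 1296 arrangements can give. Both treated libraries lay below both controls in each of the 4 lines. In CHLA15 3.73 and 3.66 counts of H3F3B per count of H3F3A stood against 2.91 and 2.82 with palbociclib. In BE2C the ratio was 2.59 and 2.48 at 0 h of GSK-J4, 2.46 and 2.48 at 24 h and 2.82 and 2.76 at 48 h. The 24 h libraries overlapped with those at 0 h, and both 48 h libraries lay above them. With the KDM6B siRNAs it was 3.84, 3.20 and 3.88 in N1, N2 and N33 and 2.73 and 2.59 in siCtrl. An exact permutation test of 2 against 2 or 3 against 2 libraries cannot pass the threshold. The part of H3F3AP4 in the ratio of H3F3B to H3F3A was not tested.

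The ratio of H2AFZ to H2AFV fell by 0.23 on average (mean difference -0.23, exact permutation test, p = 0.00309, adjusted p = 0.00617), with all treated libraries below the controls in 3 of 4 lines and overlap in CHLA15. The ratio of H2AFY to H2AFY2 was lower by 0.16 (mean difference -0.16, exact permutation test, adjusted p = 0.0453), but it rested on NB1643 (-0.48), had the opposite sign in NB1691 (0.06), and had an adjusted p of 0.204 without NB1643. The ratio of H1F0 to H1FX did not pass the test (mean difference -0.12, exact permutation test, adjusted p = 0.159). Its sign was negative in 3 lines and positive in NB1643 (0.21), and without NB1643 the mean difference was -0.23 (adjusted p = 0.0185).

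**Figure D4:**
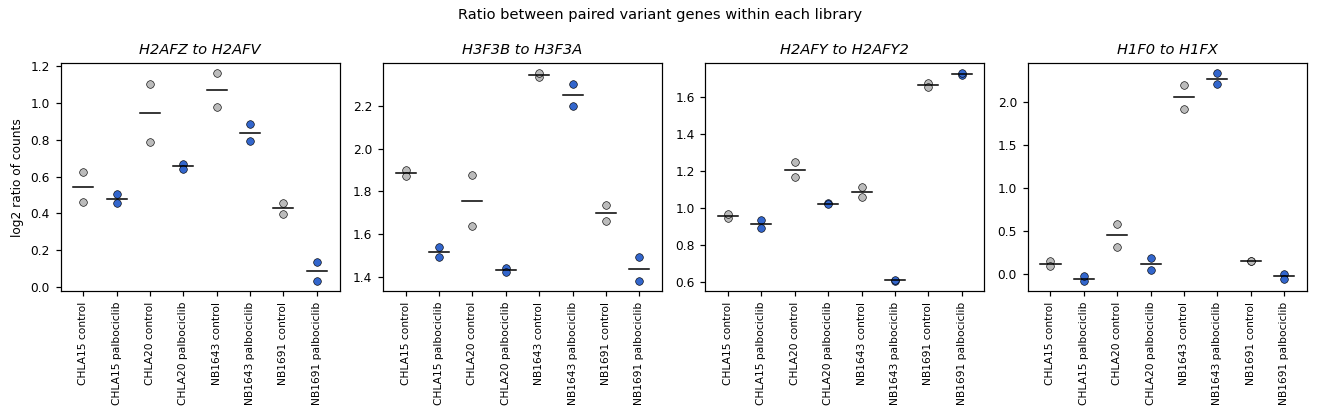
log2 ratio of counts (y axis, scaled separately for each pair and not starting at 0) for 4 pairs of variant genes in control (grey) and palbociclib-treated (blue) cells of 4 lines (x axis). Each point is 1 library and each bar the mean of 2. For H3F3B to H3F3A both treated libraries lie below both controls in every line, with differences from -0.37 in CHLA15 to -0.09 in NB1643.

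In untreated cells the members spanned a wide range of levels. Per kilobase of canonical transcript, H2AFZ was the highest member in BE2C at 0 h (698 CPM per kilobase), CHLA15 (521), CHLA20 (671) and NB1691 (308). CENPA was the lowest in every line, at 28.2 in BE2C, 32.9 in CHLA15, 35.9 in CHLA20, 25.4 in NB1643 and 9.26 in NB1691. NB1643 differed in order, with H1F0 at 659 CPM per kilobase above H3F3B (487) and H2AFZ (440). All 10 members differed among the 4 lines of the palbociclib experiment (F test over control libraries), as did 91.2% of all genes, so that their count is near the background.

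H1F0 differed most, by 13.6-fold between NB1643 (1412 and 1493 CPM) and NB1691 (104 and 109.9 CPM), with CHLA20 (415 CPM in both) and CHLA15 (304 and 286 CPM) between them and no overlap of neighbours. H1FX followed the same order, with 373 and 324 CPM in NB1643, 276 and 333 CPM in CHLA20, 273 and 266 CPM in CHLA15 and 93.4 and 98.6 CPM in NB1691, where NB1643 and CHLA20 overlapped. CENPA ranked CHLA20, CHLA15, NB1643 and NB1691, 3.88-fold from first to last. H2AFV had the narrowest range, 1.71-fold, from 311 and 307 CPM in CHLA15 and 307 and 295 CPM in CHLA20, which overlapped, through 194 and 202 CPM in NB1691 to 177 and 185 CPM in NB1643. All members but H2AFV had their lowest mean in NB1691, the line whose COL1A1 and neuroblastoma markers stood apart. The share of all genes with their lowest mean in NB1691 was not counted, so this order cannot be set against the background. The summed proliferation markers of control cells were also lowest in NB1691, and the part of any of these markers was not tested.

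**Figure D5:**
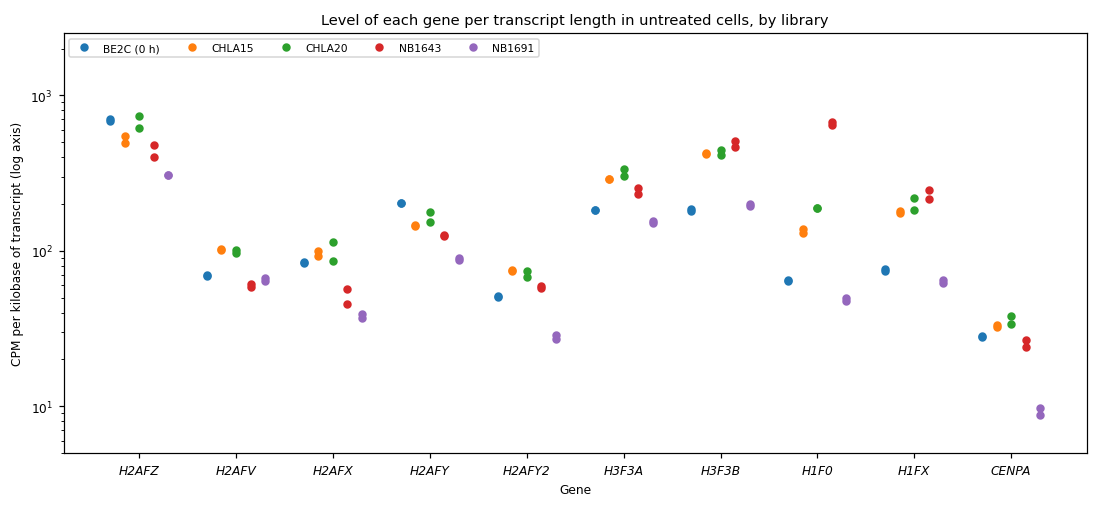
Level per transcript length (y axis, CPM per kilobase, log axis) of each gene (x axis) in untreated BE2C (0 h), CHLA15, CHLA20, NB1643 and NB1691 cells. Each point is 1 library. H2AFZ lies highest and CENPA lowest in most lines, and H1F0 in NB1643 stands above the other lines at 659 CPM per kilobase on average. BE2C was counted and scaled apart from the other lines.

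The partners of the variants were followed as lists. Their counts stand beside 28.0% of all genes called lower at 24 h of GSK-J4 and 34.4% at 48 h. The shares called lower with palbociclib were 15.6%, 15.9%, 19.7% and 15.5% in CHLA15, CHLA20, NB1643 and NB1691. Called higher with GSK-J4 were 4833 of the 17734 genes tested at 24 h and 6579 at 48 h. Of 8 tested genes for CENP-A loading and its partners, 5 were lower and 0 higher at 24 h of GSK-J4 and 8 were lower at 48 h, with a median of -0.61 against 0.05 over all genes. With palbociclib 5 were lower in CHLA15, 6 in CHLA20, 8 in NB1643 (median -1.28) and 7 in NB1691 (median -1.30). HJURP, the chaperone of CENP-A, had the lowest value in NB1691 (-3.50), and PLK1, a mitotic kinase that licenses loading, had the lowest in NB1643 (-4.01) and at 48 h of GSK-J4 (-2.44).

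Of 11 genes for placing or removing H2A.Z, 7 were lower and 2 higher at 48 h of GSK-J4, with RUVBL1, an ATPase shared by the remodelers, lowest (-1.21) and EP400, which places H2A.Z, highest (0.66). With palbociclib 3, 5, 4 and 7 of them were lower in CHLA15, CHLA20, NB1643 and NB1691. ANP32E, which removes H2A.Z, had the lowest value in CHLA20 (-0.62), NB1643 (-1.78) and NB1691 (-1.03). The 8 H3.3 chaperones gave 4 lower and 3 higher at 48 h of GSK-J4, and 1, 1, 3 and 2 lower with palbociclib in the same order of lines, with DEK lowest in each line (-1.27 in NB1643). In CHLA15 and CHLA20 the lower count of the chaperones was under the share over all genes, and their median at 48 h of GSK-J4 was -0.10 against 0.05 over all genes.

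Of 8 kinases and readers of H2A.X, 3 were lower and 4 higher at 48 h of GSK-J4. That lower count was near the share over all genes. In NB1643 5 were lower, with BRCA1 lowest (-2.55) and TP53BP1 highest (0.65). The 5 macroH2A partners were all lower at 48 h of GSK-J4 and in NB1691, and 4 were lower in NB1643 (median -1.52). Of the replication-dependent linker histones, the S-phase counterparts of H1F0 and H1FX, 4 of 5 were tested. All 4 were called lower at both GSK-J4 times (median -2.65 at 48 h), in CHLA20 (median -2.15) and in NB1643 (median -2.01). In CHLA15 1 of 4 was called lower (median 0.47) and in NB1691 0 of 4 (median -0.04). A gene not called was not thereby unchanged, as HIST1H1B had -2.14 in NB1691 (edgeR quasi-likelihood test, adjusted p = 0.11). The counts behind these calls are not shown here, and the paper does not say whether poly(A) RNA was selected. H1F0 and H1FX had -0.97 and -1.30 at 48 h of GSK-J4, nearer to 0 than each of those 4 (-2.12 to -3.55). With the KDM6B siRNAs no gene of these lists passed the test.

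The genes whose pattern was most like each member were sought among 16740 genes, by the lower of the Pearson correlations of log2 CPM over the 16 palbociclib and control libraries, centred by line, and over the 6 GSK-J4 libraries. These values describe libraries that share treatments and carry no test. For CENPA they were KIF23 (0.995 and 0.998), ARHGAP11A and CCNA2. H2AFX was most like DTYMK (0.991 and 0.997), CHAF1A and GMNN, H2AFZ most like TUBG1 (0.989 and 0.994), PSMC3 and EMP2, and H2AFV most like WDHD1 (0.990 and 0.994), MMS22L and MCM3. For H2AFY they were LRR1 (0.983 and 0.989), NAE1 and TM7SF3, and for H2AFY2 DNAJB11 (0.965 and 0.980), ACOT7 and COA7. H1F0 was most like EIF4H (0.977 and 0.990), ETS1 and NEMP2, and H1FX most like ADGRA3 (0.978 and 0.986), DHPS and ATP23. The nearest genes were less alike for H3F3A, with CCDC28B (0.945 and 0.968), BEX3 and COMMD9, and for H3F3B, with CCBE1 (0.929 and 0.964), MPHOSPH10 and GPKOW.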

How the data were processed

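RNA-seq counts of 27 libraries were used (siRNA 5, GSK-J4 6, palbociclib 16). The authors extracted total RNA, sequenced paired ends of 100 bases, aligned to GRCh37 (STAR 2.5.3a is named in the submitters' processing notes, without its role) and counted with htseq-count, and deposited raw counts, 1 value for each gene symbol. The label for extraction names xenograft tissue, the study's methods name cells, and the methods name a mouse annotation although symbols are human. Each BE2C library was deposited as a pair of files, which were added up (22 files, 11 libraries). The htseq-count summary lines were left out.

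Each experiment was fitted apart with edgeR 4.0.16 in R 4.3.3: genes were filtered with filterByExpr, scaled by TMM and tested by quasi-likelihood, and p-values were adjusted (Benjamini-Hochberg) over all genes tested, with a threshold of 0.05. The SE is the log2 fold change divided by the root of its F value. Depth was 36186567 to 93011010 counts on genes, and floors cover counting error only. The common coefficient of variation was 0.350 in the siRNA fit, 0.0219 with GSK-J4 and 0.0523 with palbociclib. Alternatives used DESeq2 1.42.0, limma-voom (limma 3.58.1), library totals, upper quartiles, no filter beyond 1 count, a replicate block, the compared groups alone, each BE2C file as a sample, each library left out in turn and, chosen after seeing the data, a fit without NB1691. Ratios used a pseudocount of 0.5, and the scripts were tested on simulated data. All 10 members are named, with the highest or lowest gene of a list and the 3 genes most like each member. Members and lists were chosen with earlier results of these data known. Promoters came from RefSeq, 9 members of 10 matching. Python 3.11.15, pandas 2.3.3, numpy 2.4.6 and matplotlib 3.10.9 were used.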

Additional observations from a re-analysis of the deposited data

Results flagged for a closer look

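The effect of palbociclib differed among the 4 lines for 9 of the 10 members, by the F test of the line by palbociclib interaction in edgeR. The adjusted p was 2.479e-14 for CENPA, 6.403e-07 for H2AFX, 1.326e-06 for H2AFV, 4.312e-05 for H2AFZ, 0.0001684 for H2AFY, 0.00149 for H2AFY2, 0.002646 for H1FX, 0.004244 for H3F3B and 0.04612 for H1F0. Of all genes tested, 38.0% were called in the same test. The log2 fold changes of CENPA spanned -5.08 in NB1643 to -0.41 in CHLA15 and those of H2AFX -2.27 to -0.44 in the same lines, whereas those of H1F0 spanned -0.91 to -0.61. H1F0 was not called with upper quartile factors (adjusted p = 0.1015) or when any of 10 of the 16 libraries was left out (0.05212 to 0.2717). Without the NB1691 libraries H2AFY2 (adjusted p = 0.3204) and H3F3B (adjusted p = 0.09117) were not called, and the other 7 members were. That fit called 4650 genes, against 8403 with all 4 lines. Dose and line cannot be told apart in any of these tests.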

How the results depend on the processing

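No member changed sign while called, under any alternative. The siRNA count of members called, 0 in the main fit, was 1 with DESeq2 and 1 without a filter beyond 1 count (H2AFX in both), and 2 with each file as a sample (H2AFX and H2AFZ), where files of a library count as replicates. The genes called were then 164, 84 and 2354, against 0. In CHLA15 the members called were 3 to 5 when a library was left out, 3 without the second palbociclib library, and in all other comparisons left-out libraries kept the count within 1.5 times. The ratio of H2AFY to H2AFY2 lost its call without CHLA15 (-0.2021), without CHLA20 (-0.1545) and without NB1643 (-0.05611), and the ratio of H1F0 to H1FX passed without NB1643 (-0.2291). Leaving out a line also leaves fewer arrangements. Under 1 or more alternatives H2AFY2 and H3F3A in CHLA15 and H3F3A in NB1643 were called higher, H2AFZ in CHLA15 and H2AFY in CHLA20 were called lower, and H2AFX and H1FX in CHLA15 and H2AFY in NB1691 lost their calls. H3F3A in NB1691 was called with library totals (-0.21, adjusted p = 0.00587) and with the line alone (-0.14, adjusted p = 0.00172), and its interaction with library totals, DESeq2, no filter or without the second CHLA20 control library. Without NB1691, 4650 genes were called in the interaction, against 8403, from fewer samples, and H2AFY2 and H3F3B lost their calls. Upper quartile factors moved the all-gene median at 48 h of GSK-J4 from 0.05 to 0.16, without changing the direction of a called member, and from 24 h to 48 h 5558 genes were then higher and 4007 lower, against 4593 and 4958, and H1F0 missed the threshold (-0.08, adjusted p = 0.0568). Without a filter that median was 0.20, and that of the siRNA comparison 0.19 against 0.04. With library totals, genes called in NB1691 were 2762 higher and 4929 lower, against 3847 and 3422. Replicate numbers did not pair the samples (correlation of deviations -0.0628 to 0.0483), and with the replicate block the genes called at 48 h of GSK-J4 were 12727 against 12678, with 10 members called in both.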
